A study of Mus musculus with 24 samples.

Results

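Cholesterol synthesis was followed through 8 genes: Hmgcs1, Idi1, Fdft1, Sqle, Cyp51 and Dhcr7, which encode enzymes of the pathway, and Insig1 and Srebf2, which regulate it. The genes were chosen by name, and every probe set that the array annotation gives to one of them was used, which came to 19 of the 45037 probe sets tested and 8 of the 18193 genes with a probe set of their own. Hmgcs1 had 5 probe sets, Fdft1 4, Cyp51 3, Idi1 and Srebf2 2 each, and Sqle, Dhcr7 and Insig1 1 each. None of the 8 encodes a receptor for lipoprotein uptake, and genes of uptake are therefore given from a separate list. The RNA came from wild-type male C57BL/6 mice that entered the experiment at 6 to 8 weeks of age by the growth protocol, while the sample descriptions give upper ages that differ between samples, and age was not used. The stressed mice went through chronic mild stress (CMS), a series of unpredictable mild stressors on 6 days a week for 4 weeks, and the control mice did not. The cerebral cortex (CC), the prefrontal cortex (PFC), the amygdala (Amy) and the hippocampus (Hippo) of both kinds of mice were measured on 24 Affymetrix mouse genome arrays, with 3 arrays per area and treatment (n = 3). The methods name pooled RNA and the design text names independent mice, so the p-values below may describe only the spread between these RNA samples.

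Cells build cholesterol from acetyl-CoA. Hmgcs1 makes the precursor of mevalonate, Idi1 interconverts the isoprene units, Fdft1 joins farnesyl units into squalene, Sqle oxidises squalene, Cyp51 removes a methyl group from lanosterol, and Dhcr7 carries out a final reduction to cholesterol. Srebf2 encodes SREBP-2, a transcription factor held in the endoplasmic reticulum membrane while sterols are plentiful. Insig1 encodes the protein that holds it there and is itself a target gene of the factor. When sterols fall, SREBP-2 is cut, enters the nucleus and binds sterol regulatory elements in the promoters of the enzyme genes, often next to a CCAAT box bound by NF-Y. The brain makes its own cholesterol behind the blood-brain barrier, much of it in oligodendrocytes for myelin and in astrocytes.

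The promoters of 4 of the genes are shown because Idi1, Cyp51 and Insig1 had lower values together in the CMS hippocampus and Hmgcs1 holds a match to the sterol element core. Each sequence is the 250 bases before the RefSeq start (GRCm38.p6), 5′ to 3′ on the strand of the gene. Capitals mark the sterol regulatory element core TCACCCCAC and the CCAAT box, which reads ATTGG where it lies on the opposite strand.
Hmgcs1, chr13:119690101-119690350, plus strand: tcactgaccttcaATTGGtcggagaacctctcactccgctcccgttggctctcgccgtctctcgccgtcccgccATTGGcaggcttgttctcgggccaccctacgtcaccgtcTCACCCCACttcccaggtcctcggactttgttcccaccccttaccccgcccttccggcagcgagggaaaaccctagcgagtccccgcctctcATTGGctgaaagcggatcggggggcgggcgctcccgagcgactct
Idi1, chr13:8885356-8885605, plus strand: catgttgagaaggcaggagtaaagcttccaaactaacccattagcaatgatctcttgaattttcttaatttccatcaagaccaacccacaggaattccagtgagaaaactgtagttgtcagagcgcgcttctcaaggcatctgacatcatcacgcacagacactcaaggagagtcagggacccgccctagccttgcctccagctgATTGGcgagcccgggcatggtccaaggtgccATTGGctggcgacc
Cyp51, chr5:4104698-4104947, minus strand: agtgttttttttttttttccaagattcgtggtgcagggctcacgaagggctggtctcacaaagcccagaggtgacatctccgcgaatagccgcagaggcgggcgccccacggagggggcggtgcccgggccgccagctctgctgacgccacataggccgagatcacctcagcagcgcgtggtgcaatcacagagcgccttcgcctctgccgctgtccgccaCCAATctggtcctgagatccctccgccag
Insig1, chr5:28071162-28071411, plus strand: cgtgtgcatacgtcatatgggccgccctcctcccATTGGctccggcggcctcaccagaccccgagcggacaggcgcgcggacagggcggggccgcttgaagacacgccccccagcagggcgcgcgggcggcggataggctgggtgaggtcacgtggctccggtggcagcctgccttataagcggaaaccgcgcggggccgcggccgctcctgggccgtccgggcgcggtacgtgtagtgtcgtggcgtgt

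The RefSeq table held promoters of 6 of the 8 genes and none of Fdft1 or Sqle. Both strands were searched for TCACCCCAC, for TCACNCCAC, which contains it, and for CCAAT. The core TCACCCCAC was found in Hmgcs1, at bases -137 to -129 from the start, and 0.496% of the 32851 RefSeq promoters of the same window held it. The looser form TCACNCCAC gave the same Hmgcs1 match and was held by 1.05% of all promoters. CCAAT was held by at least 1 promoter of each of the 6 genes, and by 33.8% of all promoters. That share counts single promoters and not genes, and the first and second starts of Dhcr7 had no CCAAT. Hmgcs1 had 3 CCAAT boxes, Idi1 had 2, and Cyp51, Insig1 and Srebf2 had 1 each, while Dhcr7 had 2 before the third of its 3 starts. Other forms of the sterol element were not searched, so a promoter without a match may still hold one. These matches describe letters and are not measured binding sites.

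All values below are log2 values relative to the median of that probe set over the 24 arrays, averaged over the probe sets of a gene, so they can be compared between arrays for 1 gene but not between genes. A call means a Benjamini-Hochberg adjusted p under 0.05 from limma over all genes of the comparison, and a second rule also asks for a fold change over 2. Before the results, some features of the arrays matter. Markers of hippocampus were higher in the control hippocampus than in each other area in 7 of 7 measured genes, cortex markers were higher in PFC and CC than in Amy and Hippo in 6 of 6, and amygdala markers were higher in Amy than in each other area in 5 of 6 per comparison. Markers of other tissues also differed between control areas. Striatum markers averaged 1.22 in Amy and 0.92 in PFC, against -2.30 in CC and -2.80 in Hippo. Choroid plexus markers averaged 2.38 in Hippo and 1.71 in CC, against 0.27 in PFC and -0.66 in Amy. The part of these markers in the control area differences was not tested. The hippocampus arrays stood apart in the poly-A RNAs added to the samples (27 probe sets), at -4.02 in controls and -4.11 in CMS against -0.55 to 0.50 in the other groups. Their hybridisation controls (18 probe sets) averaged -1.11 in controls and -1.48 in CMS, against -0.17 to 0.82 in the other groups. The 3′ minus 5′ difference of the Actb probe sets, a sign of RNA length, was -0.44 in control Hippo. In the other control groups it was -0.02 to 0.19. The part of array processing in the differences between Hippo and other areas was not tested. Control CC replicate 3 lay farthest from the other arrays of its group over all probe sets (root mean square difference 0.242). The median gene moved with CMS by 0.02 in Amy, -0.05 in Hippo, 0.02 in PFC and -0.03 in CC.

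**Figure D1:**
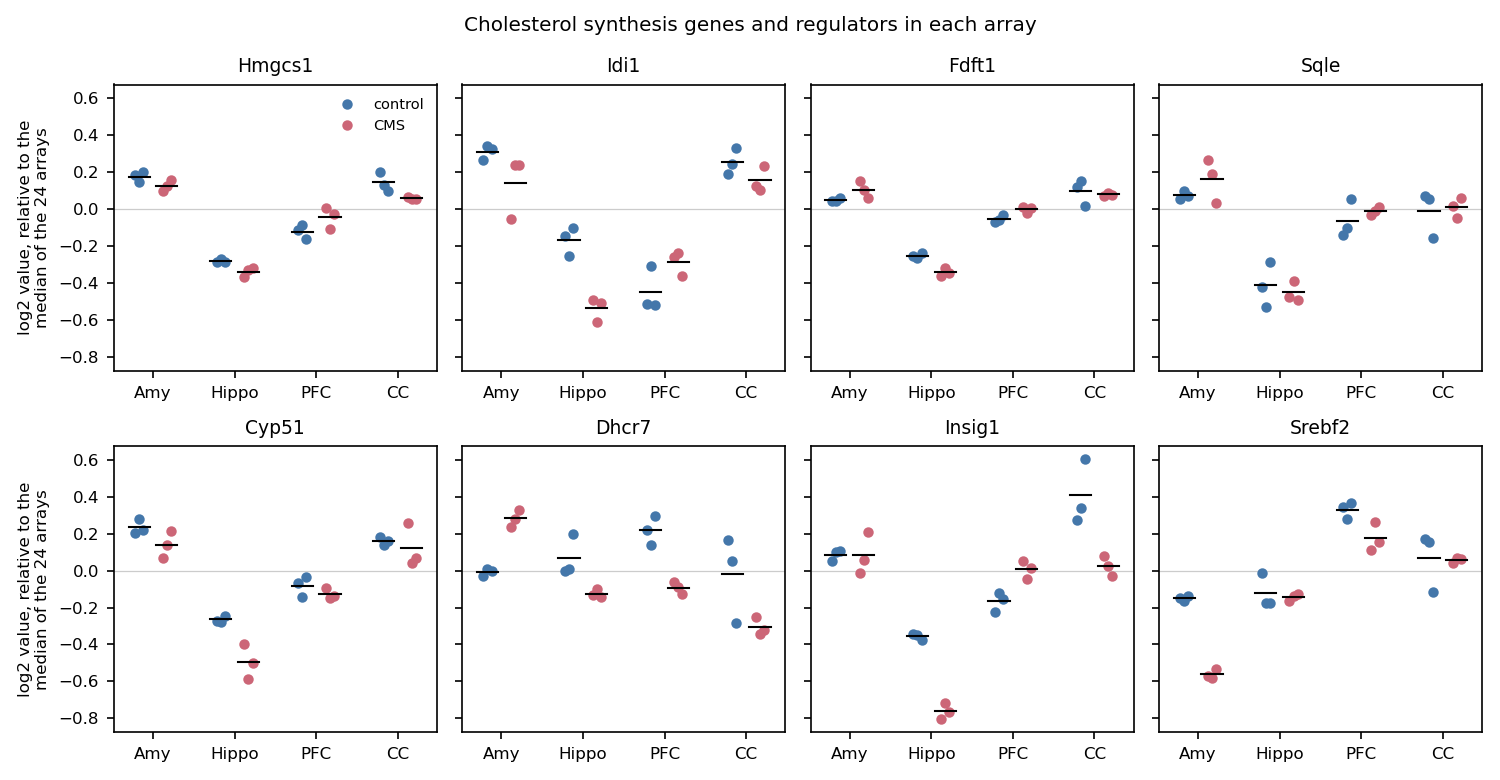
Values of the 8 genes in each of the 24 arrays. The vertical axis is the log2 value relative to the median of the 24 arrays, points are single arrays (blue control, red CMS, n = 3 per group) and lines are group means. Srebf2 in Amy, Insig1 and Idi1 in Hippo and Dhcr7 in Amy and PFC are among the genes that separate CMS from control. Some genes that were not called, such as Insig1 in PFC and CC, also separate them. Hippo lies low for most of the enzyme genes in both treatments.

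In the amygdala, CMS-treated mice had less Srebf2 mRNA and more Dhcr7 mRNA, and no other member was called. Srebf2 was -0.15, -0.16 and -0.14 in the control arrays and -0.57, -0.58 and -0.53 in the CMS arrays. The groups were far apart, and the log2 fold change was -0.41 (SE 0.02, adjusted p = 0.00109), a 1.33-fold decrease. Dhcr7 was -0.03, 0.01 and 0.00 in the controls and 0.24, 0.28 and 0.33 with CMS. All CMS arrays were above all controls, and the log2 fold change was 0.29 (SE 0.03, adjusted p = 0.00522). The regulator and the last enzyme of the pathway thus moved in opposite directions in the same RNA. Both calls were kept when any 1 of the 6 arrays was left out, with adjusted p of at most 0.0114 for Srebf2 and 0.0284 for Dhcr7. Over all genes, 8.84% were called lower and 10.5% higher in this area, against 1 of 8 members in each direction.

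The other enzyme genes of the amygdala did not pass the test. Idi1 was 0.27, 0.34 and 0.32 in controls and -0.06, 0.24 and 0.24 with CMS. The CMS arrays all lay below the controls, but the first CMS array was far below the other CMS arrays, and the difference was -0.17 (SE 0.09, adjusted p = 0.233). Cyp51 differed by -0.09 (SE 0.04) and Hmgcs1 by -0.05 (SE 0.02), while Sqle differed by 0.09 (SE 0.06) and Fdft1 by 0.06 (SE 0.03), with adjusted p from 0.176 to 0.339 and overlapping groups. Insig1, the retention protein, had CMS arrays of -0.01, 0.06 and 0.21 around controls of 0.05, 0.10 and 0.11, and its difference was 0.00 (SE 0.06, adjusted p = 0.988).

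Cell and region markers also differed between the amygdala groups. Of 9 measured oligodendrocyte markers 8 were lower with CMS (median -0.57), and their mean per array ranged from 0.02 to 0.09 in controls and from -0.52 to -0.50 with CMS. Of 10 astrocyte markers 5 were lower (median -0.19), with array means of 0.22 to 0.25 in controls and 0.01 to 0.06 with CMS. Endothelium markers were higher in 3 of 6, with array means of -0.26 to -0.14 in controls and 0.13 to 0.28 with CMS. Markers of neighbouring regions moved too. Cortex markers were higher in 3 of 6 (array means -0.55 to -0.54 in controls, -0.29 to -0.25 with CMS). Striatum markers were higher in 7 of 8 (array means 1.21 to 1.23 in controls, 1.55 to 1.60 with CMS), hippocampus markers lower in 4 of 7 (0.58 to 0.63 against -0.43 to -0.25), and the markers of the amygdala itself lower in 4 of 6 (1.55 to 1.61 against 1.23 to 1.31). Probe sets for the hybridisation controls were also brighter with CMS, at 0.82 against 0.01. In bulk tissue, fewer cells of a type and less RNA per cell cannot be told apart, and the part of these markers in the Srebf2 and Dhcr7 differences was not tested.

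In the hippocampus, 4 of the 8 members were called lower with CMS, Insig1, Idi1, Cyp51 and Fdft1, where 24.9% of all genes were called lower and 4.66% higher. All 8 differences were below 0, as were those of 72.8% of all genes, and 6 of the 8 lay below the median of all genes. Insig1 was -0.34, -0.35 and -0.38 in controls and -0.81, -0.72 and -0.76 with CMS. This was the widest gap between groups in the area, and the log2 difference was -0.41 (SE 0.03, adjusted p = 0.00516), a 1.33-fold decrease. Idi1, the isomerase, was -0.14, -0.25 and -0.10 in controls and -0.49, -0.61 and -0.51 with CMS. The groups did not overlap, and the log2 fold change was -0.37 (SE 0.05, adjusted p = 0.0151). Cyp51, the lanosterol demethylase, was -0.27, -0.28 and -0.24 in controls and -0.40, -0.59 and -0.50 with CMS. Its log2 fold change was -0.23 (SE 0.05, adjusted p = 0.0331), with CMS arrays that spread more widely than the controls. Fdft1, the squalene synthase, was -0.26, -0.27 and -0.24 in controls and -0.36, -0.32 and -0.34 with CMS. The difference of -0.09 (SE 0.02, adjusted p = 0.0276) was small, and the median gene of the area moved by -0.05.

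The remaining members of the hippocampus missed the threshold. Hmgcs1 differed by -0.06 (SE 0.02, adjusted p = 0.0547), and its CMS arrays lay below the controls. Dhcr7 was 0.00, 0.01 and 0.20 in controls and -0.13, -0.10 and -0.14 with CMS. The control at 0.20, replicate 3, widened its error, and the difference was -0.19 (SE 0.06, adjusted p = 0.0614). Without that control it was -0.13, with an adjusted p of 0.0255. Sqle differed by -0.04 (SE 0.07) and Srebf2 by -0.02 (SE 0.05), with overlapping groups and adjusted p of 0.702 and 0.751. Srebf2 thus had no called difference in the area where Insig1 and 3 enzyme genes were lower. Its value there averages probe sets of opposite sign, however. Probe set 1426744_at was at 0.14 and was not called, and 1452174_at was at -0.19 and was called lower (adjusted p = 0.0448).

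Several of these calls depended on the scaling. Centring each array on its median left 6.23% of all genes called lower and 3.88% higher, and 2 of the 8 members, Insig1 and Idi1, were still called. Under that scaling Cyp51 was at -0.19 (adjusted p = 0.0838) and Fdft1 at -0.05 (adjusted p = 0.186). Insig1 was called without any 1 of the 6 arrays (adjusted p of at most 0.0283). Idi1 missed the threshold without CMS replicate 3 (adjusted p = 0.0539) or without control replicate 1 (0.0579). Cyp51 was called only without CMS replicate 1, with adjusted p from 0.0605 to 0.104 when any of the other arrays was left out, and Fdft1 only without control replicate 3, with 0.0539 to 0.0951 otherwise. The marker counts that follow are without median centring, where 24.9% of all genes were called lower and 4.66% higher. Thalamus markers were higher with CMS in 6 of 7 genes (median 1.22), with array means of -0.62 in all controls and 0.68 to 0.70 with CMS. Oligodendrocyte markers ranged from 0.32 to 0.39 in controls and from 0.24 to 0.26 with CMS (2 of 9 higher, 3 of 9 lower). Astrocyte markers were lower in 4 of 10 and higher in 0, with array means of 0.08 to 0.15 in controls and 0.00 to 0.05 with CMS. Probe sets for the hybridisation controls were lower with CMS, at -1.14 to -1.06 in the control arrays and -1.50 to -1.46 in the CMS arrays. The 3′ minus 5′ difference of the Gapdh probe sets averaged -0.06 in controls and -0.12 with CMS. The part of tissue composition and of array processing in the member differences was not tested.

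**Figure D2:**
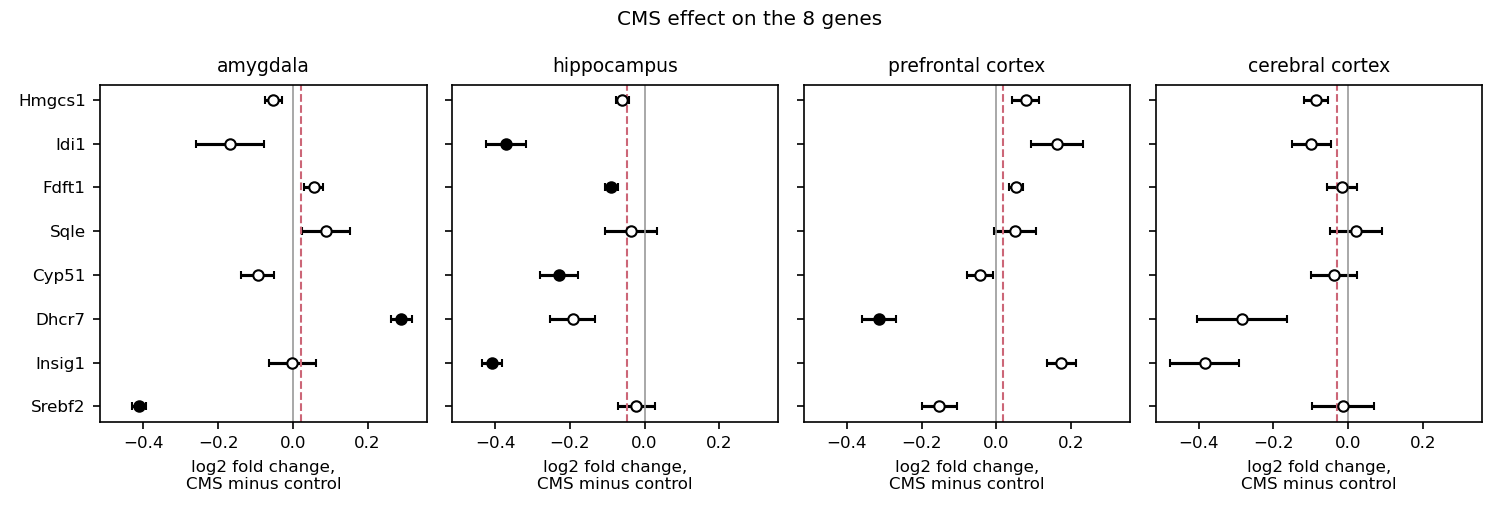
CMS effect on the 8 genes in each area. The horizontal axis is the log2 fold change, CMS minus control, with bars of 1 standard error from limma (n = 3 against 3); filled points have an adjusted p under 0.05, and the dashed line is the median of all genes. Filled points appear for Dhcr7 and Srebf2 in Amy, 4 genes in Hippo and Dhcr7 in PFC, and none appears in CC.

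In the prefrontal cortex, Dhcr7 was lower with CMS, opposite to the amygdala. It was 0.22, 0.14 and 0.30 in controls and -0.06, -0.09 and -0.13 with CMS. No arrays overlapped, and the log2 fold change was -0.31 (SE 0.04, adjusted p = 0.0192), a 1.24-fold decrease. Across all genes 3.92% were called lower and 4.45% higher, against 1 and 0 of the 8 members. The call was lost without CMS replicate 1, 2 or 3 or control replicate 1, with adjusted p from 0.0594 to 0.0665, although the log2 fold change stayed between -0.35 and -0.28.

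Insig1 and Srebf2 had values on opposite sides of the controls in the prefrontal cortex, but neither passed the test. Insig1 was -0.22, -0.12 and -0.15 in controls and 0.05, -0.05 and 0.01 with CMS. The CMS arrays were all higher, and the difference was 0.17 (SE 0.04, adjusted p = 0.0573). Srebf2 was 0.35, 0.28 and 0.37 in controls and 0.11, 0.27 and 0.16 with CMS, a difference of -0.15 (SE 0.05, adjusted p = 0.131). The enzyme genes Idi1 (0.16), Hmgcs1 (0.08), Fdft1 (0.05), Sqle (0.05) and Cyp51 (-0.04) had log2 differences with adjusted p from 0.184 to 0.531. Oligodendrocyte markers were lower with CMS in 6 of 9 genes, with array means of -0.21 to -0.16 in controls and -0.44 to -0.43 with CMS. Astrocyte markers were lower in 4 of 10 and higher in 1 (array means -0.06 to 0.00 in controls, -0.09 to -0.05 with CMS). Choroid plexus markers were lower in 4 of 9 (array means 0.15 to 0.37 in controls, -0.97 to -0.88 with CMS), and striatum markers were lower in 4 of 8 and higher in 1 (0.90 to 0.95 against 0.74 to 0.78). The added poly-A RNAs averaged -0.55 in controls and 0.03 with CMS, and the 3′ minus 5′ difference of the Actb probe sets, a sign of RNA length, was 0.13 and -0.07. The part of these in the Dhcr7 difference was not tested.

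In the cerebral cortex no member was called by limma. The background was 3.99% of all genes called lower and 5.95% higher. Insig1 was 0.28, 0.34 and 0.61 in controls and 0.08, 0.02 and -0.03 with CMS. All CMS arrays were below the controls, and the log2 difference was -0.38 (SE 0.09, adjusted p = 0.0619). Dhcr7 was 0.17, 0.05 and -0.28 in controls and -0.25, -0.34 and -0.32 with CMS. Control replicate 3 overlapped the CMS arrays, and the difference was -0.28 (SE 0.12, adjusted p = 0.228). Hmgcs1 differed by -0.09 (SE 0.03, adjusted p = 0.182) and Idi1 by -0.10 (SE 0.05, adjusted p = 0.316). Cyp51, Fdft1, Sqle and Srebf2 lay between -0.04 and 0.02.

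The count in this area depended on control CC replicate 3, the array noted above, and also on the fit. Without that array 3 members were called lower: Dhcr7 at -0.42 (adjusted p = 0.0210), Insig1 at -0.28 (0.0334) and Srebf2 at -0.11 (0.0280). Of all genes 5.79% were then called lower. With all 24 arrays in 1 fit, 3 members were also called lower: Insig1 (adjusted p = 0.000411), Dhcr7 (0.0176) and Hmgcs1 (0.0436), against 9.97% of all genes. The methods' t-test with Benjamini-Hochberg adjustment called 0. Choroid plexus markers were lower with CMS in 9 of 9 genes (median -3.10), with array means of 1.69 to 1.73 in controls and -1.45 to -1.37 with CMS. Striatum markers were higher in 8 of 8 (median 1.45), and oligodendrocyte markers in 7 of 9, with array means of -0.12 to -0.09 in controls and 0.18 to 0.21 with CMS. Astrocyte markers were higher in 5 of 10 and lower in 0 (array means -0.27 to -0.19 in controls, 0.04 to 0.05 with CMS). Microglia markers were higher in 3 of 7 (-0.21 to -0.04 against 0.17 to 0.21) and neuron markers in 2 of 8 (-0.04 to 0.02 against 0.14 to 0.15). The difference between the 3′ and 5′ Actb probe sets was 0.19 in controls and -0.41 with CMS. The part of these in the member values was not tested.

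No member passed the rule that adds a fold change over 2 in any area, and the widest member difference was 1.33-fold. By that rule 0.583% of all genes were called in Amy, 0.253% in Hippo, 0.247% in PFC and 0.357% in CC. Centring each array on its median changed the split of calls by adjusted p alone to 9.74% lower and 6.96% higher in Amy, 3.77% and 2.84% in PFC, and 2.08% and 5.32% in CC.

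The CMS effect differed between areas for 6 of the 8 genes, by an F test on all 24 arrays (background 52.3% of all genes). Dhcr7 had the widest contrast, 0.29 in Amy against -0.31 in PFC, a difference of 0.60 (SE 0.11, adjusted p = 0.000997). Its amygdala effect also differed from that in CC by 0.57 (adjusted p = 0.000924) and from that in Hippo by 0.48 (adjusted p = 0.0032). Insig1 differed by -0.58 between Hippo and PFC (SE 0.09, adjusted p = 0.000299) and by 0.56 between PFC and CC (adjusted p = 0.000655). Its effects in Hippo and CC were close, with a difference of -0.02 (SE 0.09, adjusted p = 0.927). The Srebf2 effect in Amy differed from that in Hippo by -0.39 (SE 0.08, adjusted p = 0.00202), from that in CC by -0.40 (adjusted p = 0.00171) and from that in PFC by -0.26 (adjusted p = 0.048). Idi1 differed between Hippo and PFC by -0.53 (SE 0.10, adjusted p = 0.00174). Hmgcs1 and Fdft1 passed the F test with adjusted p of 0.0114 and 0.0135, but Fdft1 did not after median centring (0.429), and Hmgcs1 did not either (0.0728). Sqle (0.69) and Cyp51 (0.105) did not pass. With the hippocampus arrays left out, 4 genes passed (Hmgcs1, Dhcr7, Insig1 and Srebf2; background 30.6%).

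Probe sets of the same gene did not always move together. Both Srebf2 probe sets were lower in the CMS amygdala, at -0.43 (1426744_at, adjusted p = 0.00611) and -0.40 (1452174_at, adjusted p = 0.00566). In the hippocampus they parted, at 0.14 and -0.19, and the second was called (adjusted p = 0.0448). Both Idi1 probe sets were called lower in the hippocampus, at -0.40 and -0.34. Of the Cyp51 probe sets, 1422533_at differed by -0.50 (adjusted p = 0.0487) and 1422534_at by -0.08 (adjusted p = 0.0222), while 1450646_at was at -0.11 and was not called. The Fdft1 difference in the hippocampus rested on 1438322_x_at, at -0.24 (adjusted p = 0.00674), since 1448130_at was at -0.05 and the other probe sets, 1438918_at and 1438919_x_at, spanned only 0.06 and 0.07 over all 24 arrays. The median range of all probe sets was 0.711. Hmgcs1 had probe sets called in opposite directions in the amygdala, 1433443_a_at at 0.14 (adjusted p = 0.0449) and 1433446_at at -0.21 (adjusted p = 0.0425). In the hippocampus 1 of its 5 probe sets was called, 1441536_at at -0.26 (adjusted p = 0.00968), and in CC 1433446_at was higher by 0.14 (adjusted p = 0.02). The mean over probe sets of Hmgcs1 therefore averages values that differ in sign.

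**Figure D3:**
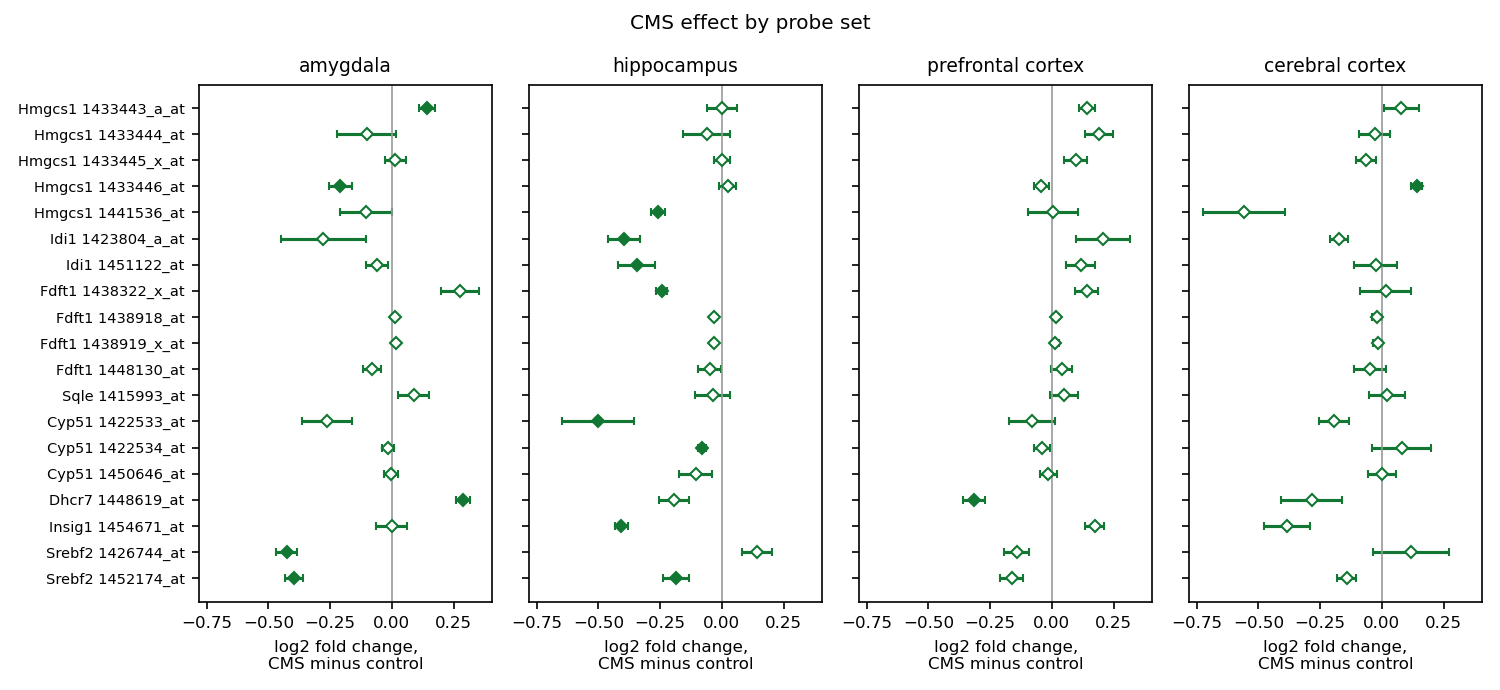
CMS effect of each of the 19 probe sets. The horizontal axis is the log2 fold change, CMS minus control, with bars of 1 standard error (n = 3 against 3), and filled points have an adjusted p under 0.05 over all probe sets. The 2 Srebf2 probe sets lie together in Amy and apart in Hippo, and the Hmgcs1 probe sets lie on both sides of 0 in Amy.

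In control mice, 7 of the 8 genes differed between areas by the F test (background 58.1% of all genes). The hippocampus was lowest for 5 of them, and its arrays also stood apart in the added poly-A RNAs and the hybridisation controls. The part of array processing in these differences was not tested. Hmgcs1 averaged -0.28 ± 0.01 (SD, n = 3) in Hippo, -0.12 ± 0.04 in PFC, 0.14 ± 0.05 in CC and 0.18 ± 0.03 in Amy. Cyp51 followed the same order, at -0.26 ± 0.02, -0.08 ± 0.06, 0.16 ± 0.02 and 0.24 ± 0.04. In both genes CC and Amy did not differ beyond their spread (adjusted p = 0.555 and 0.0975). Sqle was -0.41 ± 0.12 in Hippo, and the other areas, from -0.06 in PFC to 0.07 in Amy, were not told apart by the test. Fdft1 was -0.25 ± 0.02 in Hippo, -0.05 ± 0.02 in PFC, 0.05 ± 0.01 in Amy and 0.10 ± 0.07 in CC, the last pair not differing (adjusted p = 0.356). Insig1 ranged from -0.36 ± 0.02 in Hippo over -0.17 ± 0.05 in PFC and 0.09 ± 0.03 in Amy to 0.41 ± 0.17 in CC, and each neighbouring pair was called (adjusted p = 0.0436, 0.0166 and 0.00556).

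Idi1, Srebf2 and Dhcr7 had other orders. Idi1 was lowest in PFC, at -0.45 ± 0.12, followed by Hippo at -0.17 ± 0.08, CC at 0.25 ± 0.07 and Amy at 0.31 ± 0.04, and CC and Amy did not differ (adjusted p = 0.662). Srebf2 was highest in PFC, at 0.33 ± 0.05, and was 0.07 ± 0.16 in CC, -0.12 ± 0.09 in Hippo and -0.15 ± 0.01 in Amy. Its values in Hippo and Amy did not differ (adjusted p = 0.734), nor did those in Hippo and CC (0.0741). Srebf2 mRNA was thus highest in the area where Idi1 was lowest, while Hmgcs1, Fdft1, Sqle, Cyp51 and Insig1 were lowest in Hippo. The arrays measure mRNA and not the cut SREBP-2 protein. Dhcr7 ranged from -0.02 ± 0.24 in CC to 0.22 ± 0.08 in PFC and did not pass the F test (adjusted p = 0.175).

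**Figure D4:**
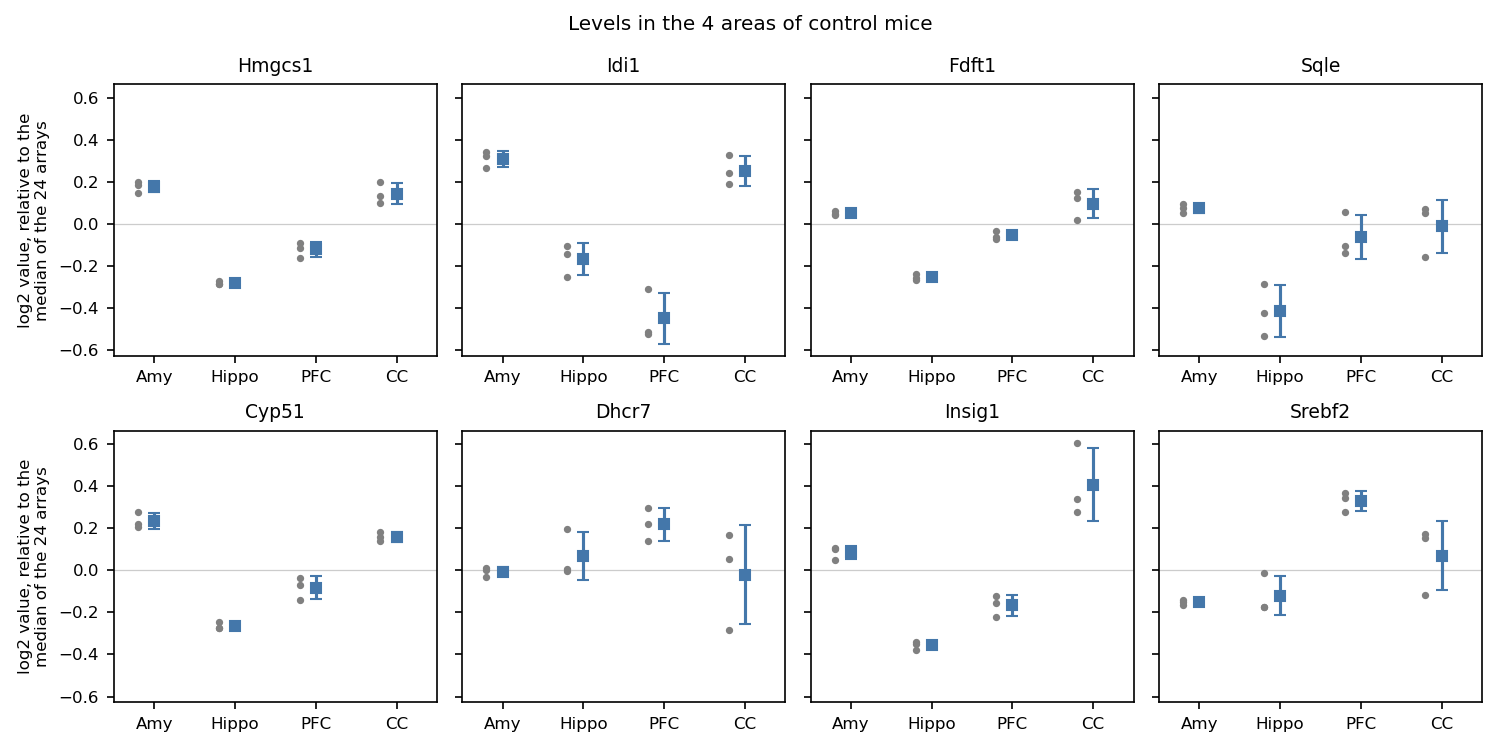
The 8 genes in the 4 areas of control mice. The vertical axis is the log2 value relative to the median of the 24 arrays, grey points are single arrays, and squares with bars are means ± SD (n = 3). Hippo is lowest for Hmgcs1, Fdft1, Sqle, Cyp51 and Insig1, PFC is lowest for Idi1 and highest for Srebf2.

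By pairs of areas, 6 of 8 members were higher in Amy than in Hippo, against 27.5% of all genes. For Amy over PFC it was 5 of 8 (background 21.1%), and Srebf2 was lower in Amy. Between Amy and CC 2 of 8 differed, Insig1 and Srebf2, both lower in Amy (background 33% in either direction). Hippo was below PFC in 6 of 8 (background 25.9%) and below CC in 6 of 8 (background 24.2%), and Idi1 was higher in Hippo than in PFC by 0.28. With quantile normalization 3 of the 6 Hippo values below PFC were still called, Fdft1, Sqle and Srebf2, while Hmgcs1 was at -0.05 (adjusted p = 0.22), Cyp51 at -0.09 (0.0528) and Insig1 at -0.03 (0.821). PFC was below CC in 5 of 8 (background 16.8%), with Srebf2 higher in PFC. Several of these calls were close to the threshold. Insig1 between Hippo and PFC was lost without any 1 array of the control Amy, Hippo or PFC groups (adjusted p up to 0.114), and Srebf2 between Amy and CC without any 1 control array but Hippo replicate 1 and CC replicate 3 (adjusted p up to 0.156). Fdft1 between Amy and PFC was lost without any Amy control or PFC control replicate 1 or 2 (up to 0.0779), Insig1 between Amy and PFC without Amy replicate 3 or PFC replicate 1 (up to 0.0599), and Srebf2 between PFC and CC without PFC replicate 1 or 3 (up to 0.0714). Leaving out CC replicate 3 added Fdft1 between Amy and CC, Srebf2 between Hippo and CC and Dhcr7 between Amy and PFC, leaving out CC replicate 1 added Dhcr7 between PFC and CC, and leaving out Hippo replicate 1 also added Srebf2 between Hippo and CC. The F test over the other 3 areas, without the hippocampus arrays, was passed by 6 of 8 members (background 46.2%), and Sqle was the member lost (adjusted p = 0.333).

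Oligodendrocyte markers did not follow this order. Their mean per array in controls was 0.32 to 0.39 in Hippo, 0.02 to 0.09 in Amy, -0.12 to -0.09 in CC and -0.21 to -0.16 in PFC, so the area highest in these markers was lowest in 5 members. Astrocyte markers were 0.22 to 0.25 in Amy, 0.08 to 0.15 in Hippo, -0.06 to 0.00 in PFC and -0.27 to -0.19 in CC. Other marker lists were lowest in the control Hippo: microglia (mean -0.26), endothelium (-0.46), cortex (-1.08) and striatum (-2.80). Those of neuron, thalamus, choroid plexus, hippocampus and amygdala were not. Over 24 arrays, Pearson's r with the mean of the members ran from -0.85 (hippocampus markers) to 0.69 (cortex markers). The part of any of these lists in the area order was not tested.

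The other genes of the pathway were read from lists, whose counts of called genes stand against the shares of all genes given above for each area. Of 21 cholesterol synthesis enzymes 18 were measured, the 6 member enzymes among them. In Amy 2 were higher and 0 lower, in Hippo 0 and 5, in PFC 2 and 2, and in CC 1 and 1, with medians of -0.03, -0.07, 0.03 and -0.02. The 5 of 18 in Hippo came to 27.8%, close to the 24.9% of all genes called lower there. Besides the members, the hippocampus decreases were Msmo1, the sterol methyl oxidase (-0.26, adjusted p = 0.0227), and Mvd, the mevalonate diphosphate decarboxylase (-0.25, adjusted p = 0.0248). Nsdhl, which takes part in the same demethylation steps, was higher in Amy (0.24, adjusted p = 0.0238), PFC (0.13, adjusted p = 0.0418) and CC (0.27, adjusted p = 0.0492). Tm7sf2, a sterol reductase, was lower in CC by 0.41 on the log2 scale (adjusted p = 0.00393). In PFC Msmo1 was higher (0.11, adjusted p = 0.0167) and Ebp, the sterol isomerase, lower (-0.13, adjusted p = 0.0336). In controls 13 of the 18 enzymes were higher in Amy than in Hippo and 0 lower, and 12 were lower in Hippo than in CC and 0 higher.

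Of 10 genes of sterol sensing 9 were measured, and their calls were Srebf2 lower in Amy, Insig1 and Mbtps2 lower and Scap higher in Hippo, none in PFC and Insig2 and Mbtps1 higher in CC. Mbtps1 and Mbtps2 encode the proteases that release SREBP, and they changed by 0.50 in CC (adjusted p = 0.0417) and by -0.16 in Hippo (adjusted p = 0.024). Scap, the escort protein of SREBP, rose by 0.08 (adjusted p = 0.0357). Insig2, the second retention protein, was higher in CC by 0.22 (adjusted p = 0.0387), where Insig1 was at -0.38 without passing the test.

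Uptake and intracellular transport had 8 of 11 genes measured. Calls were 2 higher and 0 lower in Amy, 3 and 0 in Hippo, 0 and 1 in PFC, and 1 and 1 in CC. Lrp1, a large lipoprotein receptor, was higher in Amy (0.41, adjusted p = 0.0139) and Hippo (0.53, adjusted p = 0.0274) and lower in CC (-0.30, adjusted p = 0.0338). Lipa, the lysosomal acid lipase, rose by 0.15 in Amy (adjusted p = 0.0249). Vldlr and Lrp8, the receptors shared by apolipoprotein E and reelin, were higher in Hippo by 0.14 each (adjusted p = 0.0114 and 0.0163), and Vldlr was higher in CC by 0.50 (adjusted p = 0.00454). Stard4, a carrier of cholesterol between membranes, fell by 0.46 in PFC (adjusted p = 0.0135).

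Efflux, storage and turnover had 7 of 8 genes measured, with 1 higher and 2 lower in Amy, none in Hippo, 0 and 1 in PFC, and 1 and 2 in CC. Abca1, the pump that loads cholesterol onto apolipoproteins, was lower in Amy (-0.46, adjusted p = 0.00943) and higher in CC (0.68, adjusted p = 0.0173). Cyp46a1, the neuronal enzyme that turns cholesterol into 24-hydroxycholesterol for export from the brain, was higher in Amy (0.32, adjusted p = 0.0453) and lower in PFC (-0.24, adjusted p = 0.0126) and CC (-0.31, adjusted p = 0.017). Abcg1 was lower in CC by 0.33 on the log2 scale (adjusted p = 0.0275), and Cyp27a1 was lower in Amy (-0.19, adjusted p = 0.0396).

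Fatty acid synthesis, driven mainly by the related factor SREBP-1, had all 10 genes measured. In Amy 0 were higher and 5 lower, in Hippo 2 and 2, in PFC 0 and 1, and in CC 2 and 0. The amygdala decreases were Scd2 (-0.80, adjusted p = 0.0011) and Scd1 (-0.66, adjusted p = 0.00156), the stearoyl-CoA desaturases, with Fads2 (-0.46), Acsl3 (-0.31) and Elovl6 (-0.28). The desaturases were higher in CC, Scd2 by 0.45 (adjusted p = 0.00392) and Scd1 by 0.27 (adjusted p = 0.0303). The median of the list was -0.19 in Amy against 0.02 for all genes. The oligodendrocyte markers moved the same way as Scd1 and Scd2 in Amy, where they were lower, and in CC, where they were higher. In PFC 6 of 9 of these markers were lower, but neither Scd1 nor Scd2 was called. In Hippo 3 of 9 were lower and 2 higher, while Scd2 was called higher. The part of these markers was not tested. In Hippo Acsl3 was lower (-0.20, adjusted p = 0.0289) and Scd2 higher (0.19, adjusted p = 0.0406), and in PFC Elovl6 was lower (-0.35, adjusted p = 0.0174).

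**Figure D5:**
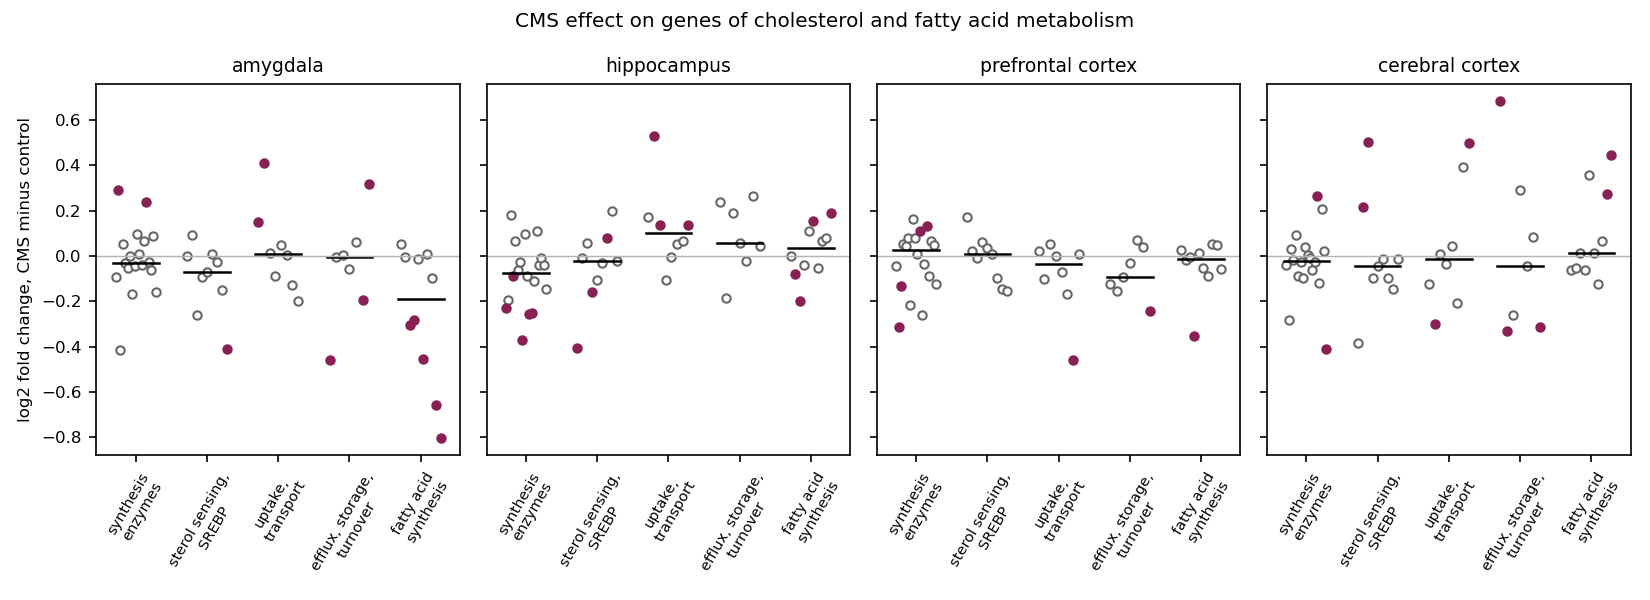
CMS effect on 5 lists of cholesterol and fatty acid genes in each area. The vertical axis is the log2 fold change, CMS minus control, each point is a gene (filled where the adjusted p is under 0.05) and lines are list medians. In Hippo 5 of 18 synthesis enzymes are called lower (24.9% of all genes are), and in Amy 5 of 10 fatty acid genes are (8.84% of all genes).

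Most members shared an order of the areas, and Dhcr7 and Srebf2 did not share it. As a description over 24 arrays, Pearson's r was 0.94 between Hmgcs1 and Fdft1, 0.94 between Hmgcs1 and Cyp51 and 0.88 between Hmgcs1 and Insig1. With group means removed the same pairs had r of 0.18, 0.02 and 0.00. Over all 28 pairs of members the within-group r ran from -0.66 (Fdft1 and Insig1) to 0.79 (Fdft1 and Sqle). Dhcr7 and Srebf2 had r of 0.07 and -0.16 with Hmgcs1 over all arrays. The 5 genes outside the lists closest to the mean of the members were Vamp4 (r = 0.97), Uba6, Fam229b, Zscan21 and Chsy3 (each r = 0.96). These points share areas and arrays, and r is given without a test.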

How the data were processed

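The series holds 24 Affymetrix mouse arrays, 3 for each of 8 groups. The authors summarised the arrays with GCRMA in GeneSpring GX and applied a baseline normalization (the sources used here give no versions). The deposited values are log2 values, and each probe set has a median of 0 over the 24 arrays (largest absolute median 5e-07), so they hold no absolute level and no measure of signal above background. Precision is limited by the number of arrays. Within groups, probe sets had median SDs of 0.033 to 0.066, and no arrays held identical values. Columns of other samples numbered 0.

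Of 45101 probe sets, 64 Affymetrix controls were left out. In the platform annotation 34945 of the rest had 1 symbol, 932 several and 9160 none, and no probe set of several genes held a member. Probe sets with 1 symbol were averaged per gene. The data were fitted with limma 3.58.1 in R 4.3.3, per area (6 arrays) for CMS against control, on 12 control arrays for areas, and on 24 arrays for differences of the effect, two-sided, with Benjamini-Hochberg adjustment over all genes. An exact permutation test of 3 against 3 arrays cannot go below 0.1 and was not used. The fits were tested on simulated data. Promoter letters were searched with Python 3.11.15.

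The members and lists were chosen with earlier results of these data known. Genes named were the members, up to 2 genes per cholesterol or fatty acid list and area with the largest change among those called (no gene of the 5 cholesterol and fatty acid lists passed fold 2), and the 5 genes closest to the members' mean, while genes that complete a count of 5 or fewer were chosen after their values were seen. Of the marker lists, the neuron, microglia and endothelium lists gave 1 to 4 higher and 0 to 1 lower calls per area. By the design text the areas came from the same mice, but the labels do not tie a replicate number to a mouse. The tests between areas therefore treated the arrays as independent. With group means removed, correlations of same-numbered arrays did not settle a pairing. They were highest on average between control Hippo and control PFC (r of 0.03, 0.04 and 0.11). Their lowest average was between control PFC and control CC (r of -0.11, -0.05 and -0.23). Alternatives were the methods' t-test, all 24 arrays in 1 fit, quantile normalization, median centring, limma's trend and robust options, only the 9097 genes that varied most over the arrays, the most variable probe set of a gene, the replicate block, each array left out and, added after the data were seen, the hippocampus arrays left out.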

Additional observations from a re-analysis of the deposited data

Results flagged for a closer look

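The CMS effect of 6 genes differed between areas by an F test on 24 arrays, with adjusted p of 0.0114 for Hmgcs1, 0.00384 for Idi1, 0.0135 for Fdft1, 0.00091 for Dhcr7, 0.000128 for Insig1 and 0.00268 for Srebf2. Among the probe sets that measure no mouse gene, the hybridisation controls were higher by 0.802 (log2) in CMS than in control amygdala arrays, and how this relates to the member values was not tested.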

How the results depend on the processing

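Srebf2 and Dhcr7 in Amy were called under all 8 alternatives other than leaving out an array (adjusted p of at most 0.0297 and 0.0365) and under all 6 arrays left out. Members called lower in Hippo numbered 4, against 2 with quantile normalization, 2 with median centring, and 1 to 4 with an array left out. In PFC the count was 1, against 0 with the methods' t-test and 0 to 1 with an array left out. In CC it was 0, against 3 with all 24 arrays in the fit, 1 among the 9097 genes that varied most (7 members) and 0 to 3 with an array left out. In Amy 2 members were higher, against 1, with the most variable probe set of a gene. The replicate block, whose numbers the labels do not tie to a mouse, left 0 members called in Hippo, where it called 0 of all genes, and 0 in PFC. Of control differences, Amy and CC differed in 1 member with median centring and 1 to 3 with an array left out, and Hippo and PFC in 4 with quantile normalization. Differences that changed sign were not called as reported. Fdft1 in CC was 0.003833 with quantile normalization, 0.01078 with median centring and 0.01495 with the most variable probe set, which also gave Hmgcs1 0.1416 in Amy (adjusted p = 0.0492), 0.0003901 in Hippo and 0.07911 in CC. In Hippo, quantile normalization gave Hmgcs1 0.01505, Sqle 0.01623 and Srebf2 0.04557, and median centring gave Sqle 0.003533 and Srebf2 0.01849, with Srebf2 0.01559 in CC. With an array left out, Cyp51 in CC ranged from -0.1052 to 0.003952, Fdft1 in CC from -0.05729 to 0.009716, Insig1 in Amy from -0.06386 to 0.04827, Sqle in CC from -0.0517 to 0.06164 and in Hippo from -0.09611 to 0.02603, and Srebf2 in CC from -0.1065 to 0.0384 and in Hippo from -0.04909 to 0.03172. The control differences of Dhcr7 ranged from -0.1183 to 0.1082 for Amy minus CC and from -0.04259 to 0.1839 for Hippo minus CC, and that of Srebf2 from -0.05843 to 0.02237 for Amy minus Hippo. Genes called lower in Hippo numbered 4539, against 1290 with quantile normalization and 1134 with median centring, and 657 without CMS Hippo replicate 3. The cause of these changes was not tested.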
